A study of Mus musculus with 20 samples.

Results

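Introns whose 3' splice site scored low while their 5' splice site did not were examined in nascent RNA of murine erythroleukemia (MEL) cells. They were all introns of the deposited score table with a 3' splice site score under 6 and a 5' splice site score of at least 6, and 803 of the 6537 introns in that table met the rule. The 4949 introns with both scores at 6 or more, called strong here, served for comparison. MEL cells are a mouse line blocked as red cell precursors, and dimethyl sulfoxide (DMSO) makes them mature. The uninduced pool came from untreated cells, and the induced pool from cells grown with 2% DMSO over 5 days. For both, chromatin-bound RNA, depleted of polyadenylated and ribosomal RNA, was read as long molecules in 2 biological replicates, each run on 2 PacBio instruments. The deposited tables hold 1 line per intron and condition with the replicates and instruments merged, so the spread between replicates is unknown, and intervals and per-intron tests cover the counting of reads only. Of the 803 introns, 266 were listed in both pools, 422 in the uninduced pool alone and 115 in the induced pool alone.

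An intron is removed in a pair of steps. In the first, the 5' splice site is cut and the intron's start is joined to a branch point inside the intron. In the second, the 3' splice site is cut and the exons are joined. The 3' splice site is read as a run of pyrimidines (C or T) followed by an AG at the intron's very end, and the factor U2AF binds both parts. A low score means that these bases depart from the usual pattern. The co-transcriptional splicing efficiency (coSE) is the spliced share of the reads that cover an intron, from 0 to 1. The fraction of intermediates (NIC) is the share of reads that end at the cut 5' splice site, that is, after the first step and before the second, among those reads and the spliced reads. Intermediates do not enter coSE.

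The sequences below show what a low score looks like. Each holds the last 20 bases of the intron and the first 3 of the next exon, 5' to 3', in lower case with every AG of the 20 intron bases in capitals, and all are as deposited. The first 4 are the lowest scoring introns with at least 20 uninduced reads, the next 2 have another AG within 7 bases of the splice site, the next 3 were rich in intermediates, and the last pair lies on either side of the threshold.
Hbs1l intron 4: tccttaattAGgaaaatcAGtta
Atp6ap2 intron 7: gttaaAGaAGtgactttcAGttt
Mfsd2b intron 4: cctccgAGgggccatcccAGttc
Ppox intron 3: tgAGggcttgtggAGaacAGgtt
Tpx2 intron 2: accatttcttccctcAGaAGaca
Edc4 intron 3: tccttactctgAGttctcAGgtg
Prpf4b intron 2: ccttttgatggtgcggaaAGaga
Hnrnpk intron 6: aacgccaatgaccaatgcAGtac
Alas2 intron 5: ttccactttcttggggccAGgga
Abce1 intron 3: ttctttattttaaataacAGaaa
Rps4x intron 4: taacccttttatacttctAGtac

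The scores of the 803 introns ran from -7.96 to 5.99 with a median of 4.78, against a median of 9.16 for the strong introns. Their 5' scores had a median of 9.1, close to the 9.08 of the strong introns. Most lay near the threshold, with 358 from 5 to under 6, 370 from 2 to under 5 and 75 under 2. The introns just inside it had 5.99 (Rpl36, Thoc1 and Abce1), and those just outside had 6.0 (Rps4x, the first intron of Ppox, and Vps35l). The 803 introns lay in 525 genes, 353 of which held 1 and 58 of which held 3 or more. Pkhd1l1 held 12, the most of any gene. By annotation 744 lay between coding exons, and 41 lay in 5' untranslated regions. Another 2 were not on an annotated intron. In 2 of them, in Cnbp and Nedd4, the last 2 bases of the intron were not AG.

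Bases that set the score differed by construction and are described only. The 20 intron bases held 11.4 pyrimidines on average (SD 1.67 over introns) against 14.02 (SD 1.68) in strong introns. The plot of pyrimidines by position shows that the shortfall ran along the whole stretch and was smallest at position -4. Base -3, just before the AG, was A in 15.6% of the low scoring introns and in 4.10% of the strong. A G opened the next exon in 39.1% against 51.7%. Another AG stood within the 20 bases in 224 introns (27.9%) against 414 strong introns (8.37%). Other features were compared as well. An annotated alternative 3' splice site used with the same 5' site was listed for 21.3% against 14.6%, and one within 3 nt for 23 (2.86%) against 16 (0.323%). The median length was 849 nt against 1002 nt, and the median GC content 42.6% against 44.1%. Fewer were present in every annotated transcript that spans them (60.1% against 67.8%).

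**Figure D1:**
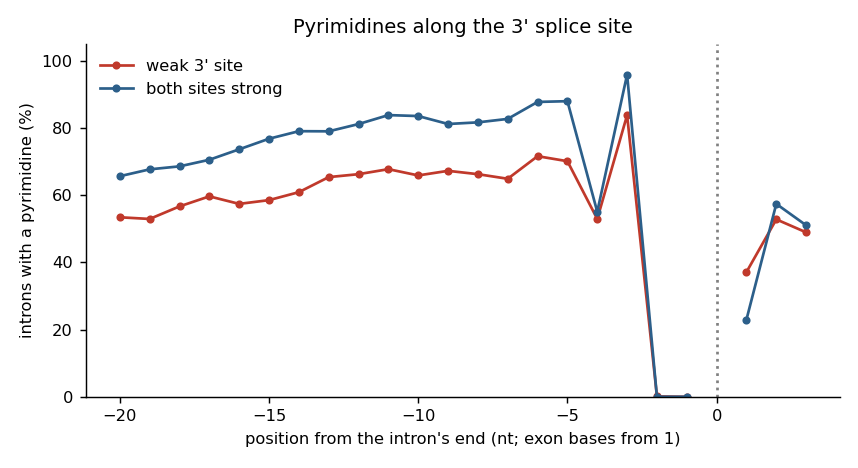
Percentage of introns with a pyrimidine (y axis) at each position of the 3' splice site (x axis, nt from the intron's end), for the 803 introns with a weak 3' site and the 4949 with both sites strong. The line of the weak sites runs below that of the strong sites over most of the intron bases; both drop to near 0 at the AG.

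Most introns with a weak 3' splice site were spliced in most reads, and somewhat less often than strong ones. In the uninduced pool their coSE averaged 0.830, with a median of 0.917 (n = 688), against 0.870 and 0.944 for strong introns (n = 4205). In the induced pool the mean was 0.842 and the median 0.920 (n = 381), against 0.871 and 0.947 (n = 2280). All 5568 uninduced lines and 3008 induced lines of the table averaged 0.860 in each pool. A median of 22 reads covered each of these introns uninduced and 25 induced, with at least 10 in every line. Poorly spliced introns were more frequent. A coSE under 0.5 was found in 63 of the 688 (9.16%) against 6.25% of strong introns, and in the induced pool in 33 of 381 (8.66%) against 6.54%. Complete splicing, a coSE of 1, was found in 24.4% against 31.8% uninduced and in 31.8% against 36.0% induced. With the reads of each class added together, coSE was 0.871 (95% Wilson interval 0.867 to 0.875) against 0.902 (0.901 to 0.904) uninduced and 0.821 (0.814 to 0.827) against 0.864 (0.861 to 0.866) induced. The induced value of the weak introns leaned on 1 intron, of the beta-globin gene Hbb-bs, which gave 450 of their 2417 unspliced reads. Among introns between coding exons, which leave it out, the added induced coSE was 0.856 against 0.863. The intervals do not cover such weight of single introns. Introns of 1 gene share reads and are not independent, so no test across introns was made. Introns with a weak 5' site and a strong 3' site averaged 0.837 and 0.818, and those weak at both sites 0.775 and 0.757.

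The fall with score was uneven. Introns under a score of 2 had a mean coSE of 0.768 (n = 64) uninduced and 0.771 (n = 34) induced. From 2 to under 4 the means were 0.804 and 0.811. From 4 to under 5 they were 0.861 and 0.825, and from 5 to under 6 they were 0.838 and 0.877. Above the threshold, from 6 to under 7, they were 0.849 and 0.847, so the bins on either side of 6 did not stand apart in a common direction in the 2 pools. When each gene was given equal weight, the class difference shrank from -0.0403 to -0.0176 uninduced and from -0.0284 to -0.0059 induced.

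**Figure D2:**
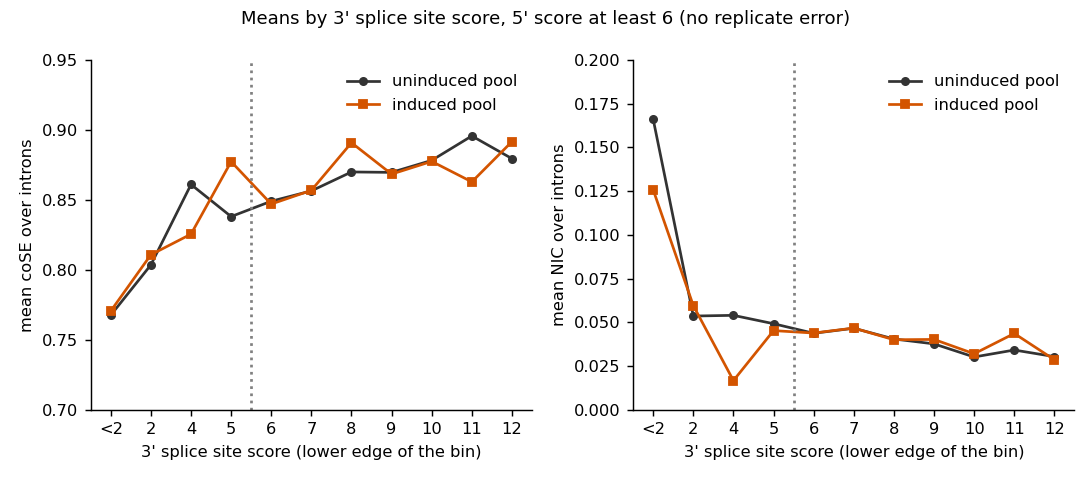
Mean coSE (left) and mean NIC (right) of introns with a 5' score of at least 6, by bins of the 3' splice site score labelled by their lower edge, in both pools; the coSE axis starts above 0 and the dotted line marks the threshold of 6. The lowest bin, scores under 2, has the lowest mean coSE (0.768 and 0.771) and the highest mean NIC (0.166 and 0.126).

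Weak 3' sites with another AG close upstream were the less spliced ones. In the uninduced pool the 183 introns with another AG in the 20 bases averaged a coSE of 0.757 and a median of 0.857, while the 505 without averaged 0.856 and 0.931. A coSE under 0.5 was found in 33 of the former and in 30 (5.94%) of the latter. In the induced pool the means were 0.787 (n = 108) and 0.864 (n = 273). Strong introns showed the same order, 0.821 (n = 350) against 0.874 (n = 3855) uninduced and 0.838 (n = 199) against 0.874 (n = 2081) induced. Among introns with no other AG, those with weak and strong 3' sites differed by only -0.0186 uninduced and -0.0096 induced. The introns with another AG were also shorter (median 625 nt against 913 nt uninduced), and introns of up to 1000 nt had lower mean coSE than those of 2000 to 5000 nt in both classes and pools. Among introns longer than 200 and up to 1000 nt the weak introns with another AG still averaged less than those without, 0.748 against 0.799 uninduced and 0.762 against 0.822 induced. In that length range the uninduced strong introns with another AG were lower still, at 0.717. The part of intron length in these values was not tested further. The feature was singled out after its values were seen, among 14 features that were looked at.

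Length also separated the weak introns widely. Their mean coSE was 0.728 up to 100 nt (n = 49), 0.726 from there to 200 nt (n = 52) and 0.943 over 2000 and up to 5000 nt (n = 123) in the uninduced pool. The induced values were 0.668 (n = 25), 0.727 (n = 35) and 0.963 (n = 65). Strong introns of the same lengths averaged 0.773, 0.801 and 0.942 uninduced and 0.751, 0.803 and 0.949 induced. The weak introns were thus below the strong ones at short lengths and level with or above them from 2000 to 5000 nt. Over 5000 nt they were below again, 0.890 (n = 43) against 0.962 and 0.929 (n = 25) against 0.974. Weighting the strong introns to the lengths of the weak ones left an uninduced difference of -0.0317.

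**Figure D3:**
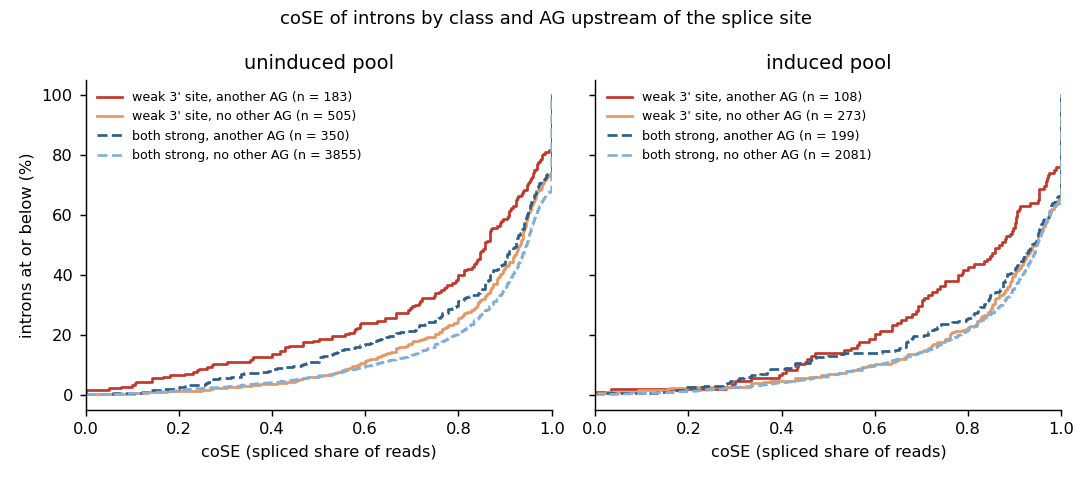
Cumulative percentage of introns (y axis) at or below each coSE (x axis) in the uninduced (left) and induced (right) pool, for weak and strong 3' sites with and without another AG in the last 20 intron bases. The curve of weak sites with another AG lies above the others over most of the range (means 0.757 and 0.787), and weak sites with no other AG lie close to strong ones.

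The distance of the upstream AG ordered the uninduced means but not the induced ones. Where the nearest other AG began 2 to 5 bases before the final one, coSE averaged 0.635 (n = 30) uninduced and 0.731 (n = 24) induced, at 6 to 11 bases 0.713 (n = 14) and 0.701 (n = 8), and at 12 bases or more 0.788 (n = 139) and 0.814 (n = 76). The uninduced introns that had both another AG and an annotated alternative 3' site averaged 0.655 (n = 48), against 0.794 (n = 135) for those with another AG alone. In Tpx2, which encodes a spindle assembly factor, the final AG of intron 2 (chr2:152855003-152867186, GRCm38, plus strand, 5' untranslated region) lies 3 nt after another one, and an annotated alternative 3' site lies at that earlier AG. Only 1 of 20 uninduced reads was spliced at the later AG, a coSE of 0.05 (95% Wilson interval 0.00888 to 0.236). In Edc4, a scaffold of the mRNA decapping complex, intron 3 (chr8:105885145-105885433, plus strand) was spliced in 8 of 44 uninduced reads (0.182) and 23 of 82 induced reads (0.280), and no alternative 3' site was annotated. Ppox encodes protoporphyrinogen oxidase, an enzyme of heme synthesis. Its intron 3 (chr1:171280256-171280387, minus strand), with other AGs 5 and more bases upstream, was spliced in 9 of 42 and 13 of 33 reads, or 0.214 and 0.394. The annotation lists that intron in 2 of 6 transcripts.

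Low scores did not always go with low coSE. Intron 7 of Atp6ap2, which encodes an accessory subunit of the vacuolar proton pump, had the second lowest score of the deeper introns, -5.26, with a pair of extra AGs, yet all 20 uninduced and all 26 induced reads were spliced. Intron 1 of Zfp809, a zinc finger gene, scored -1.26 and was spliced in 20 of 20 and 62 of 62 reads. Intron 1 of Rpl7, a protein of the large ribosomal subunit, scored 0.65 and was spliced in 177 of 181 and 42 of 44 reads. Intron 4 of Mfsd2b, the sphingosine-1-phosphate exporter of red cells, scored -3.17 and had coSE of 0.773 (34 of 44 reads) and 0.778 (21 of 27). At the other end stood introns spliced in none of their reads. Intron 4 of Hbs1l, a ribosome rescue factor, had the lowest score of all, -7.96, and none of its 22 uninduced and 14 induced reads were spliced, which allows a share of up to 13.6% and 21.4%. It belongs to 1 of the 4 annotated transcripts that span it, and 3 annotated alternative 3' sites go with its 5' splice site. Intron 2 of a noncoding transcript of Uba7, which encodes the activating enzyme for the ubiquitin-like protein ISG15, had 0 of 23 and 0 of 108 reads spliced, the latter allowing up to 2.78%. That intron is in 1 of 9 transcripts, and 2 annotated alternative 3' sites go with its 5' site. How reads spliced from the same 5' site to another 3' site were counted is not given in the sources used here. Without introns that have an annotated alternative 3' site the class difference in mean coSE was -0.0295 uninduced and -0.0197 induced.

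Introns of the same gene are crossed by many of the same molecules, so a comparison inside genes shares depth and expression. The uninduced pool held 422 genes with both kinds of intron. The mean coSE of the weak introns was lower in 222 genes, higher in 186 and equal in 14, with a median difference of -0.0045 and a mean of -0.0235. The induced pool held 226 such genes, with 111 lower, 92 higher and 23 equal, a median of 0 and a mean of -0.0401. The median gene thus showed little or no difference, and the means lay further from 0 than the medians. The weak introns were lower by over 0.2 in 39 uninduced genes and higher by over 0.2 in 25, and the induced counts were 23 and 6. Of 167 genes measured in both pools, 57 were lower in both, 40 were higher in both and 70 were lower in one pool and higher in the other, or equal in at least one.

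Genes at the extremes, taken over introns with at least 20 reads, were of several kinds. Hbs1l had the largest gap, with 0 in its weak intron against a mean of 0.976 over 4 strong introns. In Arhgef39, a guanine nucleotide exchange factor gene, weak intron 5 had 0.174 (4 of 23 reads) against 0.851 over 3 strong introns, while strong intron 6, with fewer reads, was lower than the weak one at 0.0588 (1 of 17). Over all 4 strong introns the mean was 0.653. Edc4 showed the gap in both pools, 0.182 against 0.760 over 8 strong introns and 0.280 against 0.826 over 7. With introns of fewer reads included, its 2 weak introns averaged 0.369 and 0.376 and its strong introns 0.789 over 10 and 0.746 over 11. In the opposite direction, intron 3 of Add2, which encodes the membrane skeleton protein beta-adducin, had 0.976 (41 of 42 reads) and 0.972 (35 of 36) against 0.560 and 0.597 over 2 strong introns. Of those 2, intron 1 had 0.121 (7 of 58 reads) and 0.194 (6 of 31), and intron 2 had 1 in both pools, above the weak intron. All 5 uninduced and 3 induced strong introns of Add2 averaged 0.717 and 0.713. Introns 2 and 3 of Rnf4, a ubiquitin ligase gene, averaged 0.953 uninduced against 0.346 over 3 strong introns, which had 1 (38 of 38 reads), 0.0385 (1 of 26) and no spliced read among 23. With introns of fewer reads the Rnf4 means were 0.969 over 3 weak and 0.440 over 4 strong introns. Pkhd1l1, which encodes a large membrane protein and held the most weak introns, had a mean of 0.930 over 12 of them and 0.949 over 31 strong ones uninduced, and 0.884 over 11 and 0.948 over 23 induced.

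**Figure D4:**
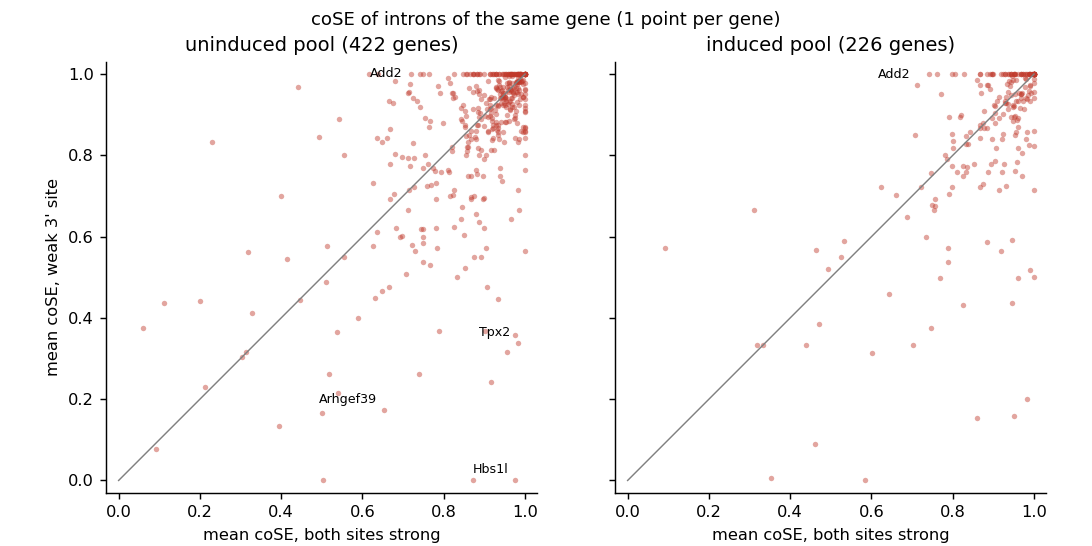
Mean coSE of the weak 3' site introns of a gene (y axis) against the mean of its strong introns (x axis), 1 point per gene, for 422 uninduced and 226 induced genes; the line marks equal values. Points lie on both sides of the line, with 39 uninduced genes lower by over 0.2 and 25 higher.

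Splicing intermediates made up a larger mean share at introns with a weak 3' site in the uninduced pool, but not in most genes. The mean NIC was 0.0622 (n = 688) against 0.0383 (n = 4205) for strong introns, and a NIC over 0.2 was found in 59 introns (8.58%) against 150 (3.57%). With reads added, intermediates were 650 of 18622 reads or 3.49% (95% Wilson interval 3.24 to 3.76%) against 2.42% (2.34 to 2.51%). In the induced pool the mean was 0.0492 against 0.0400, and introns with any intermediate made up 36.5% against 37.2%. The added induced reads gave 741 of 9922 or 7.47% (6.97 to 8.00%) against 3.71% (3.56 to 3.86%). That share rested on few introns, since intron 5 of Alas2 gave 24.7% of the intermediates. Without Alas2 intron 5 it was 5.76%, and without the 2 introns with the most intermediates it was 4.12%. Many lines rest on few reads, and among introns with at least 20 reads in NIC the class difference was 0.0111 uninduced and 0.0168 induced. Inside genes, the mean NIC of the weak introns was higher than that of the strong ones in 156 uninduced genes, lower in 194 and equal in 72, with a mean difference of 0.0183. The induced counts were 68 higher, 108 lower and 50 equal, with a mean difference of 0.00089, which was -0.0029 without first introns.

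Intermediates were most frequent at the lowest scores. Below a score of 2 the mean NIC was 0.166 (n = 64) uninduced and 0.126 (n = 34) induced, against 0.0515 and 0.0417 for scores from 2 to under 6. Without the introns under 2 the difference from strong introns was 0.0133 uninduced and 0.0017 induced. The cut at 2 was chosen after the values were seen. Of these introns, 21 uninduced had an annotated alternative 3' site and averaged 0.236, while the 43 without averaged 0.132. An intermediate marks the 5' splice site and does not tell which 3' site would have been used. Leaving out all introns with an annotated alternative 3' site gave a class difference of 0.0174 uninduced and 0.0024 induced. Mean NIC was similar with and without another AG, at 0.0623 and 0.0622 uninduced and 0.0474 and 0.0499 induced. Over added reads the order turned between the pools, with intermediates at 3.01% (2.56 to 3.54) with another AG and 3.65% (3.35 to 3.97) without it uninduced. The induced shares were 9.85% (8.76 to 11.1) and 6.64% (6.09 to 7.23). First introns of a transcript had few intermediates in both classes, 0.235% of added uninduced reads against 4.58% in the other weak introns, and 0.365% against 2.93% in strong introns.

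The introns with the most intermediates included some of RNA-binding genes and a heme synthesis gene, named here by their counts. Hnrnpk encodes a protein that binds C-rich RNA, and its intron 6 (chr13:58397797-58399155, minus strand, score 0.09) had 42 intermediates of 65 uninduced reads and 37 of 63 induced reads, NIC of 0.646 (0.525 to 0.751) and 0.587 (0.464 to 0.7). The strong introns of Hnrnpk reached at most 0.0362 and 0.143. Its coSE was 0.786 (33 of 42 reads) uninduced and 0.553 (26 of 47) induced. An annotated alternative 3' site lies 897 nt away. Intron 5 of Srsf5, an SR protein that binds exonic splicing signals, had 21 of 38 and 26 of 41. Alas2 encodes the erythroid enzyme that starts heme synthesis. Its intron 5 (chrX:150557409-150557938, plus strand, score 5.3) had 183 intermediates of 237 induced reads, 0.772 (0.715 to 0.821), while the 7 strong introns of the gene ran from 0 to 0.121. In the uninduced pool it had 5 covering reads, all spliced. Intron 2 of a noncoding transcript of Prpf4b, a kinase gene of the splicing machinery, had 13 of 14 uninduced reads as intermediates, and Hbs1l intron 4 had 13 of 13.

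Few of these introns were called different between the pools. Across all 4403 introns with at least 10 reads in both pools, 1.61% were called different between the pools in either direction (two-sided Fisher's exact test, Benjamini-Hochberg adjusted p under 0.05). Introns with a weak 3' site were called in 9 of 452 cases, all lower in the induced pool, where the share called lower over all introns was 1.25% and the share called higher 0.363%. The strong introns had 52 of 2745, 39 lower and 13 higher. At an unadjusted p under 0.05 there were 48 weak introns, 24 in each direction. The mean coSE over the 452 was 0.850 uninduced and 0.866 induced, with 211 higher, 161 lower, 80 equal and a median change of 0, so the 9 calls do not describe the class. The test compares 2 pools of reads and not replicated conditions. Across the 452 introns the pools were related with Pearson's r of 0.70 and Spearman's rho of 0.58, as a description of introns that share genes and libraries.

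**Figure D5:**
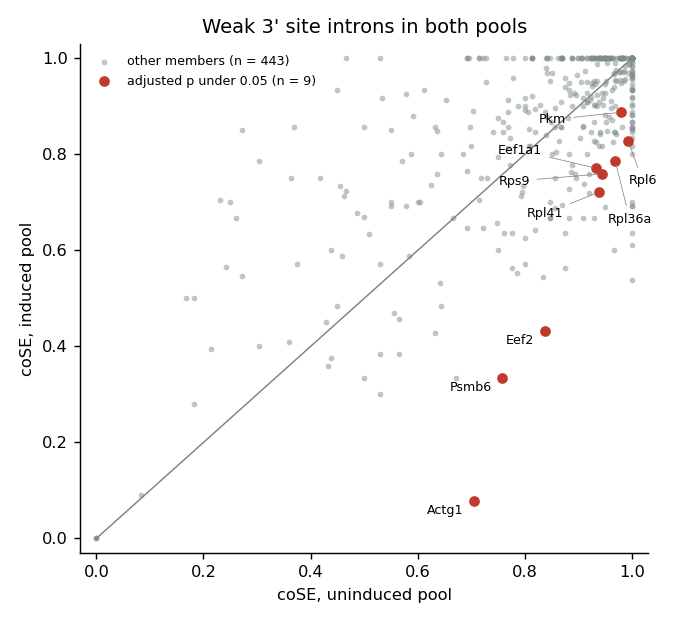
coSE in the induced pool (y axis) against the uninduced pool (x axis) for the 452 weak 3' site introns with at least 10 reads in both; red points passed Fisher's exact test at an adjusted p under 0.05, and the line marks equal values. All 9 red points lie below the line, and the other 443 lie on both sides of it.

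Ribosomal protein genes gave 4 of the 9. Rpl41 intron 2 (chr10:128548681-128548948, minus strand) fell from 0.939 (555 of 591 reads) to 0.722 (83 of 115), with an adjusted p of 3.55e-07 in Fisher's exact test. Rps9 intron 1 fell from 0.944 (255 of 270) to 0.759 (60 of 79), Rpl36a intron 2 from 0.969 (155 of 160) to 0.786 (33 of 42) and Rpl6 intron 3 from 0.993 (143 of 144) to 0.828 (24 of 29), with adjusted exact p of 0.00194, 0.0253 and 0.0361. The genes of a pair of translation elongation factors gave 2 more. Eef2 intron 11 (70 nt, with another AG 10 bases upstream) fell from 0.838 (67 of 80) to 0.432 (19 of 44), and Eef1a1 intron 5 from 0.934 (436 of 467) to 0.771 (64 of 83), with adjusted exact p of 0.00136 and 0.00369. Intron 3 of Psmb6, a catalytic subunit gene of the proteasome, fell from 0.758 (47 of 62) to 0.333 (13 of 39), adjusted exact p 0.00414. Intron 4 of Actg1, encoding cytoplasmic gamma-actin, fell from 0.706 (24 of 34) to 0.0769 (1 of 13), adjusted exact p 0.0159. Intron 1 of Pkm, encoding pyruvate kinase, fell from 0.979 (278 of 284) to 0.888 (87 of 98), adjusted exact p 0.0395. With no coverage minimum, and so 42074 introns tested, 5 of the 9 were called (Rpl41, Eef2, Rps9, Eef1a1 and Psmb6). Where 20 reads were required, 10 were called, 8 of them shared with the 9, and 2 were higher in the induced pool (Ank1 and Ddb1). A chi-square test called 12, the same 9 and 3 that were higher (Ank1, Ddb1 and Tnpo2).

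No NIC difference was called at weak sites. None of the 266 introns listed in both pools was called by Fisher's exact test, where 0.0981% of all 2039 introns were, and 5 passed an unadjusted p under 0.05. A chi-square test called 1, in Npm1, higher in the induced pool.

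The erythroid list, genes of globin, heme, the red cell membrane and their regulators, had 24 of its 34 genes in the table, and 30 of their 224 introns (13.4%, against 12.3% of all) had a weak 3' site. Their mean coSE was 0.701 uninduced (n = 10) and 0.836 induced (n = 30, the former 10 among them), and 0 of 18 tested in both pools were called, where 1.61% of all introns were. The strong introns of the listed genes averaged 0.791 (n = 69) and 0.859 (n = 163). In neither class do the means of the 2 pools cover the same introns, so they do not measure a change. Of 95 strong introns of the listed genes, 5 were called lower and 2 higher. The intermediates share of the added reads of the weak introns was 9.63% and 21.7%, the latter 419 of 1928 reads, with 183 from Alas2 intron 5. Ank1, the anchor of the red cell membrane skeleton, had intron 11 at 0.591 (13 of 22 reads) and 0.880 (103 of 117), which missed the threshold in Fisher's exact test (adjusted p = 0.117) but was called higher by the chi-square test and with at least 20 reads. Intron 3 of Car2, carbonic anhydrase, had 0.953 (81 of 85) and 0.991 (230 of 232), and intron 2 of Tfrc, the transferrin receptor gene, had 1 (11 of 11) and 0.995 (191 of 192). Intron 4 of Slc4a1, the band 3 anion exchanger gene, scored 0.59 and had 0.693 (52 of 75) in the induced pool, with no uninduced line. The weak intron of the beta-globin gene Hbb-bs, in a 5' untranslated region (chr7:103827887-103828011, minus strand), had 3 of 453 induced reads spliced, 0.00662 (0.00225 to 0.0193). Only 1 annotated transcript of the gene spans this intron, so the value does not describe the other introns of Hbb-bs. Whether reads that start inside the intron count as unspliced is not given in the sources used here.

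All 76 ribosomal protein genes in the table together held 306 introns, of which 35 in 30 genes had a weak 3' site. Their mean coSE of 0.909 uninduced and 0.877 induced was above that of the weak introns of other genes, 0.825 and 0.840. Strong introns of ribosomal protein genes averaged 0.906 and 0.905, so the weak ones had the lower mean in the induced pool and not in the uninduced pool. Intermediates made up 0.405% and 0.413% of their added reads, against 4.76% and 8.45% in other weak introns. Strong introns of ribosomal protein genes had 0.916% and 1.40%. Of 31 weak introns tested, 4 were called, all lower, and of 207 strong ones 15, all lower, where 1.25% of all introns tested were called lower. These introns were also deeper, with median uninduced reads of 144 (weak) and 107 (strong) against 21 and 22 in other genes. The part of depth in these counts was not tested. Rps6 intron 1 was spliced in 577 of 579 and 210 of 210 reads, and Rpl14 intron 3 in 335 of 342 and 109 of 109. In genes for proteins that recognise the 3' splice site, 8 of 25 listed genes were in the table, and 1 of their 51 introns had a weak 3' site.

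In such pools fewer cells of a type and less RNA per cell cannot be told apart. Intron reads of Hba-a1, an alpha-globin gene, numbered 209 uninduced and 1886 induced, and those of Alas2 61 and 1536. The uninduced table held 358493 spliced and 57886 unspliced reads in all, and the induced one held 240664 and 38707. The score table under-represents poorly spliced introns. Of lines with at least 20 reads, it lists 73.8% of those with coSE under 0.2 and 98.7% to 99.3% of the rest.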

How the data were processed

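The series holds 20 samples, of which the 8 long-read samples of uninduced and induced MEL cells enter here, as merged by the authors, and 12 were not analysed here. The first deposited table gives, per intron and condition, an unnormalised count of spliced reads and the number of unspliced reads, by its header and as the authors deposited it. Another gives counts of intermediates and spliced reads, and their ratio as a fraction (NIC), with GC content in percent, intron length and splice site score, all deposited by the authors. The merging of reads and the scoring program are not given in the sources used here. The submitters' processing notes name the builds mm10 and dm3 and the tools cutadapt, minimap2, SAMtools, bedtools and Bowtie. The members and lists were chosen with earlier results of these data known.

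coSE was recomputed from the counts, and each intron was placed in the GENCODE mouse release 21 annotation of GRCm38 (68768 of 68794 introns on an annotated intron of their transcript; positions here are 1-based). Classes used the score threshold of 6. The pools were compared per intron by Fisher's exact test (two-sided) over the whole table with at least 10 reads in both pools, adjusted by Benjamini-Hochberg at 0.05 (scipy 1.17.1, Python 3.11.15). This was tested on simulated data that held no variation between replicates. Those data cannot show how the test behaves on merged replicates. Shares have 95% Wilson intervals, and a share of 0 has an upper limit of 3 reads. Named introns were those with the 4 lowest scores or nearest the threshold, the most reads, the lowest or complete coSE, a called change, the highest NIC with at least 5 intermediates, the widest within-gene gaps, and members of the lists. Srsf5, Pkhd1l1, Cnbp, Nedd4, Ddb1, Tnpo2 and Npm1 were named after their values were seen. Alternatives were other read minimums and thresholds, gene means, added reads, subsets of introns and a chi-square test. Some introns that this rule names are not reported here.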

Additional observations from a re-analysis of the deposited data

How the results depend on the processing

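No paired analysis was possible because replicates are merged into 1 line per intron and condition, and for the same reason no replicate could be left out. The induced within-gene NIC difference, 0.00089, turned to -0.0029 without first introns, and no other difference changed its sign under the alternatives run for it. The cause of the moves below was not tested, except where an alternative uses fewer introns by construction. The uninduced difference in mean coSE (-0.0403) was -0.0320 with at least 20 reads, -0.0448 and -0.0349 at 3' thresholds of 5 and 7, -0.0314 with reads added, -0.0176 over gene means, -0.02995 for introns in all transcripts, and -0.0345 for introns over 100 and up to 1000 nt. It was -0.0186 without another AG, -0.0295 without alternative 3' sites and -0.0317 weighted by length. The induced one (-0.0284) was -0.0610 at a threshold of 5, -0.0429 with reads added, -0.0059 over gene means, -0.0364 over 100 and up to 1000 nt, -0.0096 without another AG and -0.0197 without alternative 3' sites. The induced value with reads added takes in 450 unspliced reads of 1 Hbb-bs intron. The uninduced difference in mean NIC (0.0239) was 0.0111 with at least 20 reads, 0.0335 and 0.0168 at thresholds of 5 and 7, 0.0174 without alternative 3' sites and 0.0133 without scores below 2. The induced one (0.0091) was 0.0168, 0.0024 and 0.0017 with at least 20 reads, without alternative 3' sites and without scores below 2. The added share of intermediates at weak sites, 3.49% uninduced, was 3.17% without the 2 richest introns and 4.76% without globin and ribosomal protein genes, where strong introns had 3.03% in place of 2.42%. The induced 7.47% became 5.76%, 4.12% and 8.45% without the richest intron, the 2 richest, and those genes. The within-gene mean (-0.0235 uninduced) was -0.0311 with at least 20 reads, -0.0287 and -0.0190 at thresholds of 5 and 7 and -0.0280 without first introns, and the induced -0.0401 was -0.0472 with at least 20 reads and -0.0625 at a threshold of 5. The 9 coSE calls became 5 with no coverage minimum, where 42074 introns were tested, and the 0 NIC calls became 1 with a chi-square test. The alternatives without another AG, without alternative 3' sites, without scores below 2, without the 2 richest introns, without the gene with most members and weighted by length were chosen after seeing the data. Depth limits single introns: the uninduced median was 22 reads.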
